A study of Mus musculus with 38 samples.

Results

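The tissue RNA of the Emx1-Cre cross compared adult cortex labelled as having lost both copies of Trim28 during development with cortex labelled as having lost 1 copy. The members were the 6 cortical libraries of this cross, of 38 samples in the series, chosen by their labels: 3 Trim28-KO libraries (KO60, KO73 and KO76) and 3 controls (Ctrl64, Ctrl65 and Ctrl77), with 1 animal behind each. The KO animals were Emx1-Cre +/-; Trim28-fl +/+ and the controls were Emx1-Cre +/-; Trim28-fl +/-. By these labels all 6 animals carried the Cre and the controls were heterozygous for the excised allele, but the study elsewhere calls the tissue controls Cre-negative. Which holds was not settled here, so loss of both copies was compared either with loss of 1 copy or with intact alleles. The sires also carried gtRosa(+/-), a Cre reporter. The animals were 3 months old, and sex, litter and preparation batch were not given in the labels. A second readout came from nuclei of the same cortices, with 2 KO animals (KO60 and KO73) and 2 controls (Ctrl64 and Ctrl65). The description below covers genes other than transposable elements and the clustered protocadherins.

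Trim28 (also KAP1) is a corepressor without DNA binding of its own. KRAB zinc finger proteins bring it to their target sequences, where it recruits the histone methyltransferase Setdb1 and heterochromatin proteins, and the chromatin is marked with H3K9me3. The best known targets are endogenous retroviruses, the zinc finger gene clusters themselves and imprinting control regions. Emx1-Cre is active in progenitors of the dorsal forebrain, whose descendants are the cortical excitatory neurons, astrocytes and oligodendrocyte lineage. Inhibitory neurons, microglia, vascular cells and meningeal cells come from other lineages.

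The 6 libraries held 16748967 to 25345083 gene counts over 23401 to 24705 detected genes, and mitochondrial genes took 12.5% to 15.6%. KO76 stood apart, with 25.9% of its counts in 3 ribosomal RNA-like rows (Gm42418, CT010467.1 and Lars2) against 0.194% to 0.798% in the other libraries. The fit without these rows called 123 genes higher and 79 lower outside the protocadherins, and all 194 genes described below were among them. Markers were those of cortex. The 10 excitatory neuron markers summed to 4397 to 5001 counts as scaled to the library total with TMM factors (CPM) in every library, whereas the 9 hippocampal markers summed to 65.3 to 92.2 CPM and the 13 striatal markers to 161 to 204 CPM. Xist lay between 417 and 704 CPM in all 6 libraries.

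Trim28 itself was measured at 6.08, 8.53 and 8.88 CPM in KO60, KO73 and KO76 and at 20.9, 18.98 and 21.4 CPM in Ctrl64, Ctrl65 and Ctrl77. The groups did not overlap, and the KO mean of 7.83 ± 1.52 CPM (SD, n = 3) was 38.3% of the control mean of 20.4 ± 1.28 CPM. In the fit across all genes (edgeR quasi-likelihood test, Benjamini-Hochberg adjustment) Trim28 fell by 1.39 on the log2 scale (SE 0.15, adjusted p = 0.00038). The exact two-sided permutation test of the means gave p = 0.1, the smallest that 3 against 3 allows. Transcript remained in the KO tissue, and reads from cells outside the Emx1 lineage and from unexcised exons cannot be told apart in it. In bulk samples fewer cells of a type and less RNA per cell cannot be told apart either, here and for every gene below.

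Loss of both Trim28 copies was accompanied by higher levels of a small set of genes, many of them almost silent in control cortex, and by lower levels of a smaller set. Of 16271 genes tested, 216 passed an adjusted p under 0.05 with an absolute log2 fold change above 0.5 (1.33%), 140 of them higher in KO (0.860%) and 76 lower (0.467%). Without the 22 clustered protocadherins among them, 120 genes were higher and 74 lower. Of the 120 genes that rose, 54 (45%) had a control mean under 1 CPM, and of the 74 that fell, 13 (17.6%) had a KO mean under 1 CPM. A gene that low in 1 group passed the filter through its level in the other, so these shares are given as a description. The median went from 1.28 CPM in controls to 5.18 CPM in KO for the genes that rose and from 6.71 to 3.20 CPM for those that fell. On the log2 scale 48 of 120 increases were above 2 and 8 of 74 decreases beyond it, with medians of 1.58 and -1.05. Library choice moved these counts. Without KO76, 196 genes were higher and 122 lower, and without Ctrl64, Ctrl65 or Ctrl77 there were 69, 83 and 68 higher and 27, 36 and 23 lower. Of the 120 and 74 genes, 60 and 17 were called in every one of the 6 fits that left out 1 library. For genes described below that were not among these, the libraries without which the call was lost stand with the gene, with the highest adjusted p that leaving 1 of them out produced.

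**Figure D1:**
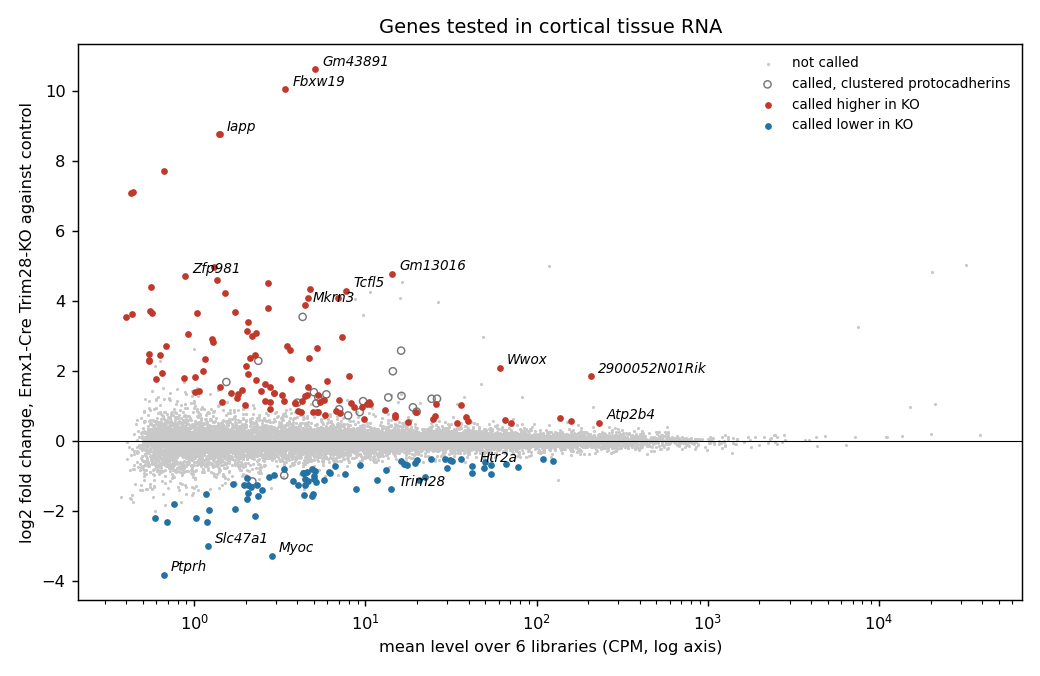
Each point is 1 of the 16271 genes tested, by its mean level over the 6 libraries (CPM, log axis) and its log2 fold change in Emx1-Cre Trim28-KO against control cortex; red points were called higher, blue points lower, open circles are called clustered protocadherins and grey points were not called. The called genes with the greatest increases lie at low mean levels, as Fbxw19 and Iapp do, while Trim28 and Myoc stand among those that fell.

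The greatest increases were in genes with no count in any control library. Fbxw19 and Fbxw16, F-box proteins with WD repeats of a mouse family expanded on chromosome 9, lie side by side. Fbxw19 was measured at 7.45, 4.76 and 8.24 CPM in the KO libraries and at 0 in all controls, so that its KO mean was at least 155-fold that of 3 counts spread over the 3 control libraries, the floor used here and below (adjusted p = 1.3e-05). Fbxw16 was at 3.35, 2.48 and 2.54 CPM against 0, at least 63.7-fold higher. Within the span of Fbxw16 on the opposite strand, Gm42494, a transcript awaiting experimental annotation, was at 0.739, 0.879 and 1.03 CPM against 0, at least 20.1-fold higher. Of 4 genes annotated in these 63.6 kb, these 3 were tested, and all 3 rose. With no control counts they passed the filter through their KO level, so this is a description only. Iapp, the precursor of the pancreatic islet hormone amylin, was at 2.44, 2.58 and 3.41 CPM against 0 and thus at least 64.2-fold higher. It lies in the span of Slco1a5, an organic anion transporter on the opposite strand, which was at 2.33, 1.91 and 3.41 CPM against 0.109, 0 and 0.0889 CPM (log2 fold change 4.98, SE 0.48, adjusted p = 0.00014). The counting was by strand, and whether reads of 1 gene reached the count of the other was not tested. Gm43891, a transcript of unknown function on chromosome 6, was at 8.58, 10.5 and 11.2 CPM against 0, at least 230-fold higher, and the long noncoding RNA Gm47015 was at least 19.5-fold higher. In each of these genes all 3 KO libraries had counts and none of the controls did, or at most a few for Slco1a5.

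Genes known from the germline formed another part of the increase. Tcfl5, a transcription factor of spermatocytes, was at 13.2, 13.6 and 17.3 CPM in KO and at 0.617, 0.381 and 1.20 CPM in controls (log2 fold change 4.29, SE 0.27, adjusted p = 2.7e-06). Mnd1, which assists strand exchange in meiotic recombination, was at 13.98, 9.25 and 16.1 CPM against 0.762, 0.924 and 0.622 CPM (4.08, SE 0.25, adjusted p = 2.7e-06). Cers3, a ceramide synthase of skin and testis, was at 5.29, 4.19 and 5.63 CPM against 0.254, 0.381 and 0.444 CPM (3.80, SE 0.26, adjusted p = 7.5e-06). All 3 genes lay far above their controls in every KO library, and Mnd1 was not on the germline list. Piwil1, a piRNA-binding protein of spermatids, was at 1.08, 0.982 and 1.03 CPM against 0.181, 0.218 and 0.400 CPM, and its call was lost without KO60, KO73, Ctrl64 or Ctrl65 (adjusted p up to 0.185). Of 57 listed germline genes 16 passed the filter on low counts. Of these Tcfl5, Cers3 and Piwil1 rose (3 genes, 18.8%, against 0.860% of all genes tested), none fell, and the median log2 fold change was 0.28, against 0.01 over all genes tested. All 3 had a control mean under 1 CPM and passed the filter through their KO level, so this share and median are a description only. Among 37 imprinted genes tested the sole call was Mkrn3, a paternally expressed ubiquitin ligase gene on chromosome 7, at 8.07, 7.08 and 9.83 CPM against 0.508, 0.489 and 0.667 CPM (3.88, SE 0.22, adjusted p = 1.7e-06). The median over the imprinted genes was 0.03, and the maternally expressed noncoding RNA Meg3 had a log2 fold change of 0.35 (adjusted p = 0.51).

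Some zinc finger genes rose, in 3 runs of neighbours and singly. Of 417 tested genes named Zfp, 13 were higher and none was lower (3.12% called, against 1.33% of all genes tested), and the median of the family was 0.04. The family call count lay between 8 and 16 when 1 library was left out. Of the 13 genes 6 lay outside the runs of neighbouring called genes. Among these, Zfp951 on chromosome 5 was at 4.21, 4.08 and 4.28 CPM against 1.16, 1.85 and 1.91 CPM (1.37), and Zfp97 on chromosome 17 was at 9.38, 7.29 and 7.13 CPM against 3.41, 3.53 and 3.78 CPM (1.15). Zfp820 (1.24) was lost without KO60, KO73, Ctrl64 or Ctrl65 (adjusted p up to 0.247), and Zfp976 (0.82) and Zfp110 (0.54) were lost when any 1 library other than KO76 was left out (adjusted p up to 0.239 and 0.274). These 5 genes were picked after their values were seen. Zfp345 on chromosome 2 had no control counts and was at 1.59, 1.14 and 1.27 CPM in KO, at least 30.4-fold higher. On chromosome 4 between 146449023 and 146539395 (GRCm38), 6 genes were annotated, 3 were tested and all 3 rose. Genes almost silent in controls passed the filter through their KO level, so such counts of tested genes are a description, here and in the runs below. Zfp981 was at 1.76, 1.40 and 1.98 CPM against 0.0726, 0.0544 and 0.0444 CPM (4.71, SE 0.43, adjusted p = 9e-05), Zfp992 was at 3.75, 2.79 and 4.68 CPM against 0.145, 0.707 and 0.267 CPM (3.41, SE 0.40, adjusted p = 0.00067), and the processed pseudogene Gm13245 rose with them but was lost without KO73 or Ctrl77 (adjusted p up to 0.0555). On the same chromosome between 147132038 and 147809788, 28 genes were annotated, 5 were tested and 4 of these rose. Zfp979 was at 5.91, 4.65 and 8.24 CPM against 0.798, 0.979 and 1.29 CPM (2.6), and Zfp982 at 2.96, 4.08 and 4.36 CPM against 0.399, 0.761 and 0.933 CPM (2.46). The calls of Zfp991 (1.54) and Zfp984 (0.95) were lost without Ctrl64 (adjusted p 0.0597 and 0.0544). On chromosome 13 between 61804257 and 62383177, 18 genes were annotated, 5 were tested and all 5 rose. Among them were Zfp808 at 4.49, 4.60 and 4.75 CPM against 1.85, 1.74 and 2.00 CPM (1.30) and its relative Gm3604 at 7.39, 5.79 and 6.26 CPM against 2.14, 2.94 and 2.76 CPM (1.32). The pseudogene Gm7240 had a log2 fold change of 3.00 and the noncoding RNA Gm19792 one of 2.35, while the call of Gm3325 (1.09) was lost without KO60, KO73, Ctrl64 or Ctrl65 (adjusted p up to 0.113). How alike the genes of each neighbourhood are along their length was not measured. Reads that match several genes were not counted, so the values of genes with close copies are uncertain. When reads with several matches were shared among copies by TEtranscripts, 14 Zfp genes were called.

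The start regions of 3 pairs of neighbouring or related genes that rose are shown to let their likeness be read directly. Each is 300 bases from RefSeq on GRCm38.p6, from 250 before to 50 after the annotated start, 5′ to 3′ on the strand of the gene, with CG dinucleotides in capitals. They lie at chr9:109495805-109496104 (Fbxw19, minus strand), chr9:109449091-109449390 (Fbxw16, minus), chr4:146514670-146514969 (Zfp981, plus), chr4:147642459-147642758 (Zfp979, minus), chr13:62129640-62129939 (Zfp808, plus) and chr13:62383125-62383424 (Gm3604, minus).
Fbxw19: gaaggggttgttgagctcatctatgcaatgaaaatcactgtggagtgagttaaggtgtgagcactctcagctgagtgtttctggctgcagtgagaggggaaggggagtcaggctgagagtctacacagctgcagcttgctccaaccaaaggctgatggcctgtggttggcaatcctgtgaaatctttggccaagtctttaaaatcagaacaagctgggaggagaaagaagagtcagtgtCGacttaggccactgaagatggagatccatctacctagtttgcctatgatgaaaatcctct
Fbxw16: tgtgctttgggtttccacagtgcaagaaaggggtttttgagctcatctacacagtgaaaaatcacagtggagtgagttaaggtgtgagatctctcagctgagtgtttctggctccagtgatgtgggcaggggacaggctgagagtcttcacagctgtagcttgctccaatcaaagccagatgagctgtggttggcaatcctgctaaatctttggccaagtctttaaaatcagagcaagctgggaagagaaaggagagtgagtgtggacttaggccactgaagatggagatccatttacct
Zfp981: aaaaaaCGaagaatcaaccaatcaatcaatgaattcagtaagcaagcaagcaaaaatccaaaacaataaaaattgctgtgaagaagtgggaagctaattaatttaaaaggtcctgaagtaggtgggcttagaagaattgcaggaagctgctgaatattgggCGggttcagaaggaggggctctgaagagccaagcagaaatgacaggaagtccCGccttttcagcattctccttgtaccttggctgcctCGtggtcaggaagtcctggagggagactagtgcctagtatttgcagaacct
Zfp979: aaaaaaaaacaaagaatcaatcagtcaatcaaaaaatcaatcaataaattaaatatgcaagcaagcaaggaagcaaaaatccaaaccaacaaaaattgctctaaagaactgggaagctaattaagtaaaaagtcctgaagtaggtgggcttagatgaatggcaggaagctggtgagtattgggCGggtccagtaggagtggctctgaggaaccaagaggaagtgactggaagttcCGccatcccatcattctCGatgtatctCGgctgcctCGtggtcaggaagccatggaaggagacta
Zfp808: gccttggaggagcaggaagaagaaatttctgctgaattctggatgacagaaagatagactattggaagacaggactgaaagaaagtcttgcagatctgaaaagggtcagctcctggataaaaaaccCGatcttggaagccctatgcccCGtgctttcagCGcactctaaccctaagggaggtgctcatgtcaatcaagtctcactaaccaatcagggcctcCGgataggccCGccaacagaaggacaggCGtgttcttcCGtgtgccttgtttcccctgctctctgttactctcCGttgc
Gm3604: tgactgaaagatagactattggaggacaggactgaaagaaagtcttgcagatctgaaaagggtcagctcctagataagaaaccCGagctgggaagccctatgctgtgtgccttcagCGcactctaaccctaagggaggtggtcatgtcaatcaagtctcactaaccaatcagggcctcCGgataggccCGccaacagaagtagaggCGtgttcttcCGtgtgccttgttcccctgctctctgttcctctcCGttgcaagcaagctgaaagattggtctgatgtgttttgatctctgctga
Fbxw19 and Fbxw16 were 75.2% identical over their alignment, Zfp981 and Zfp979 74.3%, and Zfp808 and Gm3604 70.3%, whereas the pairs across the 3 families ranged from 47.5% to 52.3%. The capitals show 1 CG in the Fbxw19 region and none in that of Fbxw16, against 4 and 5 in Zfp981 and Zfp979 and 8 and 7 in Zfp808 and Gm3604. RefSeq start regions were found for 80 of the 120 genes that rose and 52 of the 74 that fell, and their median CG number was 8 in both, against 7 over 32851 start regions. The letters TGCCGC on either strand, the core bound by the KRAB zinc finger protein Zfp57 when it is methylated, stood in 8.33% of the start regions of the genes that rose, in 12.7% of those that fell and in 11.6% of all.

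Long intergenic noncoding RNAs and some classes of pseudogene were called more often than all genes tested. Of 597 long intergenic noncoding RNAs tested, 20 were higher and 7 lower (4.52% called), against 98 and 64 of 13545 protein coding genes (1.20%). Of 402 pseudogenes tested 9 were called, all of them higher, from 1 of 266 processed ones (0.376%) to 3 of 27 unprocessed ones (11.1%). Antisense transcripts (0.976% called), transcripts awaiting experimental annotation (0.631%) and processed transcripts (0.687%) lay below the 1.33% of all genes tested. Some members of these classes, Gm13026 and Gm14267 below among them, were almost silent in controls and passed the filter through their KO level. The shares by class are therefore a description only. Gm13016 on chromosome 4 was at 26.3, 26.9 and 29.6 CPM against 1.27, 1.03 and 0.667 CPM (4.77, SE 0.19, adjusted p = 1.2e-07), the smallest adjusted p of all genes tested. Its neighbours Gm13029 (3.65) and Gm13026 (3.65) rose too, so that all 3 genes tested of 6 annotated between 140142873 and 140461291 did. Both neighbours were almost silent in controls and passed the filter through their KO level. The call of Gm13026 was lost without Ctrl64 or Ctrl77 (adjusted p up to 0.106). 2900052N01Rik on chromosome 9 was at 291, 304 and 374 CPM against 81.8, 93.6 and 95.0 CPM (1.84, SE 0.11, adjusted p = 2.7e-06). The pseudogene Gm14267 on chromosome 2 was at 3.07, 2.17 and 2.62 CPM against 0.181, 0.0544 and 0.0444 CPM (4.60). Gm20711, an antisense transcript on chromosome 1 that was picked after its values were seen, was at 5.40, 3.77 and 6.34 CPM against 0.254, 0.109 and 0.267 CPM (4.51). None of these transcripts has a known function.

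**Figure D2:**
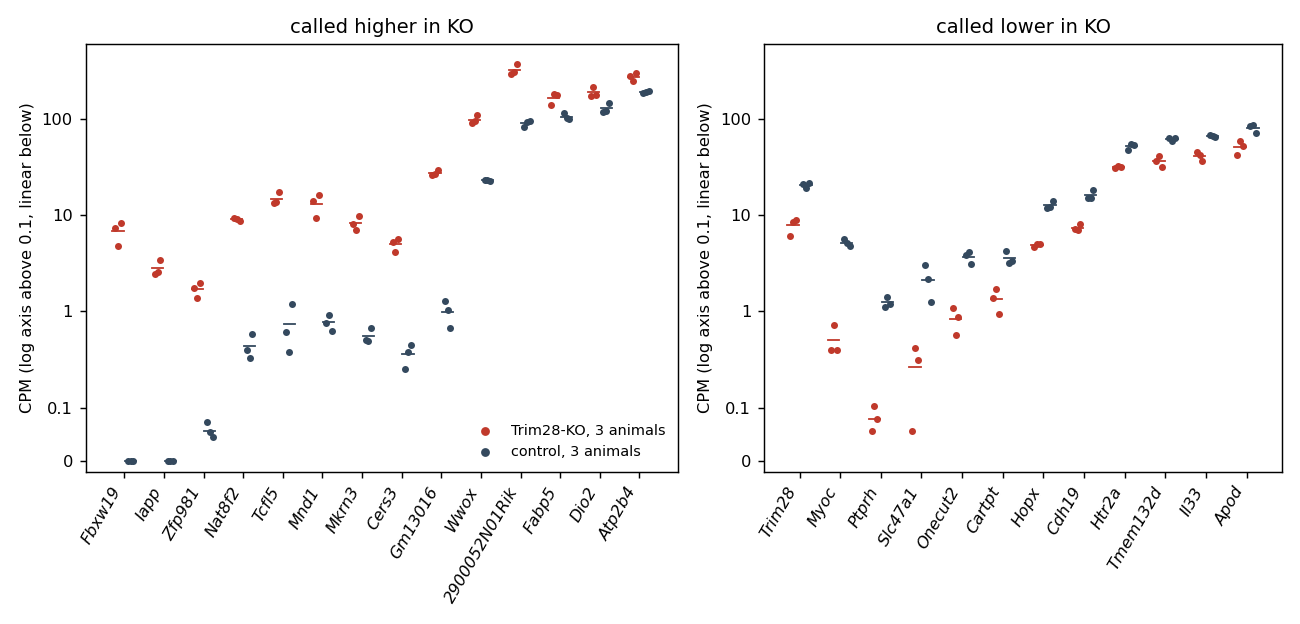
Levels in each tissue library (CPM, log axis above 0.1 and linear below) for 14 genes that were called higher and 12 that were called lower, with Trim28-KO animals in red, controls in dark blue and a line at each group's mean. The KO libraries lie on one side of all controls for every gene shown, as they do for all 120 genes that rose and all 74 that fell. The 3 controls of Fbxw19 and Iapp sit at 0.

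By position, chromosome 12 had 18 higher and 3 lower of 611 tested (3.44% called, against 1.33% of all genes tested and 1.20% outside the protocadherins), chromosome 4 had 15 and 2 of 968 (1.76%) and chromosome 6 had 10 and 4 of 844 (1.66%), whereas chromosome 19 had 2 higher and 7 lower of 499 (1.80%). On chromosome 12 a segment picked after its values were seen, from 17900734 to 24179269, held 26 tested genes, of which 10 rose and none fell, with a median log2 fold change of 0.77. The rest of chromosome 12 had 8 higher genes of 585. Some of the segment's genes were almost silent in controls and passed the filter through their KO level. Its count, its median and the contrast with the rest of the chromosome are therefore a description only. In the segment, the calls of Gm5784, Gm49769, Gm19196, 9030624G23Rik and Gm47446 were each lost when certain single libraries were left out (adjusted p up to 0.253). The segment's genes were chiefly noncoding RNAs and pseudogenes. 2410018L13Rik was at 8.18, 9.36 and 8.56 CPM against 0.653, 0.598 and 0.267 CPM (4.08), and 1700030C10Rik was at 2.44, 2.43 and 4.75 CPM against 0.0726, 0.598 and 0.133 CPM (3.68). Runs of at least 3 called genes with starts within 500 kb of the next numbered 8 and held 47 genes, 23 of them in the protocadherin run of chromosome 18. At 200 kb there were 6 runs with 35 genes and at 1000 kb 8 runs with 57. The protocadherin run held 21 higher and 2 lower genes, and 1 other run was of mixed direction. There, on chromosome 5 between 128579106 and 128755474 the noncoding RNA 5930412G12Rik fell from 2.76, 2.61 and 2.93 CPM to 0.568, 0.775 and 0.792 CPM (-1.96), and its neighbour Fzd10, a Wnt receptor, fell too (-1.22), though its call was lost without any 1 of KO60, KO73, Ctrl64, Ctrl65 and Ctrl77 (adjusted p up to 0.26). Piwil1 beside them rose. Across 570.3 kb of chromosome 6, Slco1a5, Iapp and the sulfotransferase Sult6b2 rose among 11 genes tested with a median of 0.02, and Sult6b2 was lost without KO73, Ctrl64 or Ctrl77 (adjusted p up to 0.0613).

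The floxed allele travels with its flanking chromosome. Within 10 Mb of Trim28 on chromosome 7, 166 genes were tested and 4 were called besides Trim28 (2.41%), 1 higher (Zfp110) and 3 lower (Ptprh, Eps8l1 and Gm45844), against 10 higher and 2 lower of 1069 further away on the chromosome (1.12%). The contrast depended on the distance chosen. Within 5 Mb 1 of 52 genes was called (1.92%), and within 20 Mb 2 were higher and 3 lower of 353 (1.42%), against 1.25% of those beyond. Ptprh, a receptor tyrosine phosphatase, had the greatest decrease of all genes called, from 1.13, 1.41 and 1.20 CPM in controls to 0.0568, 0.103 and 0.0792 CPM (-3.83, SE 0.45, adjusted p = 0.00067). It lies at 4548612 to 4604041, next to Eps8l1 (-1.97), an actin regulator whose call was lost without KO60, KO73, Ctrl64 or Ctrl77 (adjusted p up to 0.137). Gm45844 (-1.53) was lost without KO60, Ctrl64, Ctrl65 or Ctrl77 (adjusted p up to 0.0975), and Zfp110 was lost in all but 1 of these fits, as given above. Linked alleles and loss of Trim28 cannot be told apart for genes this close to it.

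**Figure D3:**
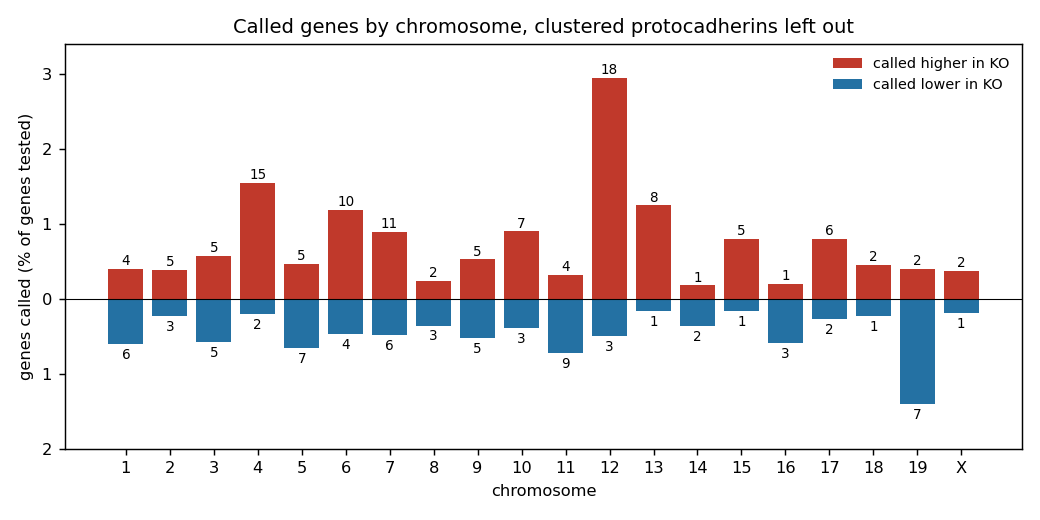
Genes called higher (red, upward) and lower (blue, downward) in KO as a percentage of the genes tested on each chromosome, clustered protocadherins left out; the numbers are counts of genes. Chromosome 12 has the tallest upward bar with 18 genes, followed by chromosome 4 with 15, and chromosome 19 has the deepest downward bar with 7.

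Other coding genes that rose were at different levels in control cortex, above 1 CPM in every control for Wwox and Klf14 and below it for Hoga1 and Nat8f2. Wwox, a tumour suppressor oxidoreductase with WW domains, was at 91.6, 94.2 and 110 CPM against 23.3, 23.3 and 22.4 CPM (2.10, SE 0.10, adjusted p = 5.2e-07). Klf14, a Krüppel-like transcription factor that is known as imprinted but was not on that list, was at 12.4, 13.5 and 13.1 CPM against 1.45, 1.63 and 1.91 CPM (2.97, adjusted p = 1.1e-06), and Hoga1, a mitochondrial enzyme of hydroxyproline breakdown, was at 3.35, 3.72 and 5.31 CPM against 0.290, 0.435 and 0.711 CPM (3.10). The acetyltransferase gene Nat8f2 was at 9.32, 9.20 and 8.72 CPM against 0.399, 0.326 and 0.578 CPM (4.36, SE 0.21, adjusted p = 5.2e-07). Wwox, Klf14 and Hoga1 were picked after their values were seen.

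Of genes known from astroglia, Fabp7, Fabp5 and Dio2 were called higher, while Myoc, Hopx and Gfra1, given further on, were called lower. Fabp7, a fatty acid binding protein of radial glia and astrocytes that was picked after its values were seen, was at 37.3, 56.1 and 51.5 CPM against 25.3, 22.9 and 23.2 CPM (1.02, adjusted p = 0.0019). Its relative Fabp5 was at 140, 181 and 179 CPM against 116, 101 and 100 CPM (0.66), a call lost without KO73, Ctrl65 or Ctrl77 (adjusted p up to 0.114). Dio2, which activates thyroid hormone in astrocytes, was at 174, 215 and 178 CPM against 118, 120 and 147 CPM (0.56), lost without KO73, Ctrl64 or Ctrl65 (adjusted p up to 0.259). Of the 17 astrocyte markers none was called by edgeR or DESeq2 (2 with unadjusted p under 0.05), with a median of 0.09 and sums of 9356 to 10834 CPM in KO against 9594 to 10390 CPM in controls. The collagen gene Col9a3 was at 4.72, 5.74 and 5.47 CPM against 2.36, 2.66 and 2.44 CPM (1.10), but it overlaps Tcfl5 on the opposite strand and its log2 fold change was -0.07 (adjusted p = 0.99) in the TEtranscripts counts. Complement C4b was at 5.34, 6.15 and 5.94 CPM against 2.76, 2.83 and 2.40 CPM (1.13, adjusted p = 0.0031), with a near-identical copy in the genome, C4a, that makes its value uncertain. It was the sole call among 22 complement and antigen presentation genes tested, whose median was -0.09. Among 25 genes of glial activation and inflammation edgeR called 1, a decrease of Casp1, an inflammasome protease, from 4.25, 4.24 and 4.31 CPM to 2.67, 2.22 and 2.38 CPM (-0.81), lost without KO73, Ctrl64, Ctrl65 or Ctrl77 (adjusted p up to 0.177). DESeq2 did not call Casp1 and called Spp1 of the same list, and without KO76 the edgeR calls of the list were Casp1, Cd44, Gfap and Nfkbia (4 genes), the last 3 picked after their values were seen. Neither edgeR nor DESeq2 called any of 34 interferon-stimulated genes (3 with unadjusted p under 0.05, median -0.12) or any of 17 microglial markers (1 with unadjusted p under 0.05, median 0.08).

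Of genes known from neurons, Slc6a7, the brain proline transporter, was at 77.3, 70.4 and 87.7 CPM against 53.8, 53.2 and 48.0 CPM (0.60), lost without Ctrl64, Ctrl65 or Ctrl77 (adjusted p up to 0.099). Atp2b4, a plasma membrane calcium pump, was at 277, 246 and 299 CPM against 186, 191 and 195 CPM (0.52), lost without KO76, Ctrl64, Ctrl65 or Ctrl77 (adjusted p up to 0.149). The Eph receptor gene Epha10 was at 42.1, 50.04 and 49.6 CPM against 35.0, 31.3 and 28.8 CPM (0.57), lost without KO73, Ctrl65 or Ctrl77 (adjusted p up to 0.148). Dach1, a transcription factor of cortical progenitors, was at 16.9, 12.6 and 13.2 CPM against 5.73, 6.63 and 7.42 CPM (1.11, adjusted p = 0.0028), the sole call among 35 transcription factors of cortical development. Rgs10, a regulator of G protein signalling that was picked after its values were seen and was read most in microglia-like nuclei, was at 31.8, 37.8 and 34.9 CPM against 16.6, 15.1 and 18.3 CPM (1.06, adjusted p = 0.00029). The groups did not overlap for any of these 5 genes, nor for any of the 120 genes that rose, against 2263 without overlap of 16271 tested. Of the 5, Rgs10 and Dach1 alone were called in all 6 fits that left out 1 library.

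The immediate early genes, which neurons switch on within minutes of activity, leaned upward without passing the test as a rule. All 22 tested had a log2 fold change above 0, with a median of 0.45, and 1 was called. Fos was at 35.1, 27.6 and 6.18 CPM in KO and at 6.64, 18.8 and 2.49 CPM in controls, and Arc at 95.0, 102 and 16.8 CPM against 10.3, 48.4 and 12.4 CPM, so that for both genes KO76 lay among the controls. Egr1 was at 333, 384 and 129 CPM against 140, 198 and 97.1 CPM. The called gene was Per1, a clock gene that neuronal activity also induces, at 21.7, 33.6 and 20.5 CPM against 14.01, 14.4 and 15.0 CPM (0.81), lost without KO73, Ctrl64, Ctrl65 or Ctrl77 (adjusted p up to 0.204). Bdnf was at 56.4, 53.5 and 42.3 CPM against 35.9, 35.4 and 36.5 CPM (0.50, adjusted p = 0.047), which did not reach the fold threshold. Without KO76, 10 of the 22 were called and the median was 0.59, without Ctrl65 the calls were Arc and Npas4, and without KO73, Ctrl64 or Ctrl77 there were none.

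Among the genes that fell, several are known from neurons. Of these, Onecut2 was higher in oligodendrocyte-like than in excitatory-like nuclei, as given further on. Htr2a, the serotonin 2A receptor, went from 47.9, 55.4 and 54.0 CPM in controls to 30.8, 32.7 and 31.9 CPM in KO (-0.72, SE 0.09, adjusted p = 0.0014). The muscarinic receptor gene Chrm2 was at 21.99, 18.4 and 19.02 CPM against 30.4, 27.8 and 26.7 CPM (-0.52) but was lost without KO73, KO76, Ctrl64, Ctrl65 or Ctrl77 (adjusted p up to 0.302). These were the calls among 34 monoamine and acetylcholine receptor genes, with a median of -0.08. Tmem132d, a neuronal transmembrane protein, was at 36.1, 41.2 and 31.8 CPM against 62.9, 59.7 and 63.4 CPM (-0.77, SE 0.10, adjusted p = 0.0021). Onecut2, a homeodomain transcription factor, was at 1.08, 0.569 and 0.872 CPM against 3.85, 4.19 and 3.11 CPM (-2.15, SE 0.26, adjusted p = 0.00083), and Rxfp2, a receptor of the relaxin family, was at 0.455, 0.258 and 0.396 CPM against 1.81, 1.41 and 1.82 CPM (-2.20, SE 0.32, adjusted p = 0.0032). The neuropeptide gene Cartpt was at 1.36, 1.71 and 0.951 CPM against 4.28, 3.21 and 3.33 CPM (-1.40), lost without Ctrl64 or Ctrl77 (adjusted p up to 0.0905). With Iapp in the other direction, it made up the calls among 22 neuropeptide genes, whose median was 0.07. The secreted guidance molecule gene Sema3e was at 29.6, 24.0 and 22.5 CPM against 41.4, 36.2 and 34.3 CPM (-0.55), lost without KO73, KO76, Ctrl64, Ctrl65 or Ctrl77 (adjusted p up to 0.313). In all of these genes the 3 KO libraries lay below the 3 controls, as they did in all 74 genes that fell. Of the 16271 genes tested, 2263 had groups that did not overlap. Htr2a, Tmem132d, Onecut2 and Rxfp2 were called in all 6 fits that left out 1 library.

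Other genes that fell are known from glia. Myoc, myocilin, a secreted protein that some astrocytes make, was at 0.398, 0.724 and 0.396 CPM against 5.63, 5.11 and 4.76 CPM (-3.29, SE 0.25, adjusted p = 1.7e-05). Cdh19, a cadherin of glia, was at 7.16, 7.03 and 8.00 CPM against 15.0, 15.0 and 18.2 CPM (-1.12, SE 0.14, adjusted p = 0.00096). Both were called in all 6 fits that left out 1 library. So were 3 genes picked after their values were seen: Hopx, a small homeodomain protein of radial glia and astrocytes, at 4.72, 5.01 and 4.99 CPM against 11.8, 12.2 and 14.1 CPM (-1.37); Il33, an alarmin cytokine of oligodendrocytes and astrocytes, at 45.1, 42.2 and 36.1 CPM against 67.5, 66.6 and 65.3 CPM (-0.69); and Gfra1, a coreceptor for the growth factor GDNF, at 14.3, 17.1 and 12.6 CPM against 29.2, 29.4 and 31.7 CPM (-1.03). Aldh1a1, a retinaldehyde dehydrogenase, was at 40.2, 47.6 and 22.4 CPM against 79.6, 67.3 and 68.0 CPM (-0.95), lost without KO60, Ctrl64, Ctrl65 or Ctrl77 (adjusted p up to 0.199), and the lipocalin gene Apod was at 42.6, 58.7 and 51.7 CPM against 84.6, 86.1 and 71.8 CPM (-0.66), lost without Ctrl64 or Ctrl65 (adjusted p up to 0.109). The oligodendrocyte markers leaned the same way. All 16 had a log2 fold change below 0, with a median of -0.31, none was called by edgeR (10 with unadjusted p under 0.05), and DESeq2 called 1 (Aspa). Their summed level was 2607, 2583 and 2783 CPM in KO against 3203, 3465 and 3193 CPM in controls, a ratio of means of 0.809, and its part in the decreases of Il33, Cdh19 and Apod was not tested.

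Markers of the meninges were also lower, and those of vessels leaned the same way with 1 call. Of 19 leptomeningeal fibroblast markers tested, 18 had a log2 fold change below 0, the median was -1.04 and edgeR called 5 lower, against 10 with DESeq2. The edgeR calls are given here. Slc47a1, an organic cation exporter, was at 0.0568, 0.414 and 0.317 CPM against 3.01, 2.18 and 1.24 CPM (-3.02, SE 0.50, adjusted p = 0.0083). Slc22a6, an organic anion transporter, had a log2 fold change of -1.59, the retinoic acid synthesis enzyme Aldh1a2 -1.28, Islr -1.18 and the collagen gene Col1a2 -1.08. All 5 calls were lost without Ctrl64 (adjusted p = 0.0559 for Slc47a1). Islr was also lost without Ctrl77 (adjusted p up to 0.073), Slc22a6 without KO60 or Ctrl77 (up to 0.15), Col1a2 without KO73, Ctrl65 or Ctrl77 (up to 0.142) and Aldh1a2 without KO60, KO73, Ctrl65 or Ctrl77 (up to 0.313). By contrast, without KO73 or KO76 the list had 9 calls each and without Ctrl77 it had 1. The most abundant marker, the prostaglandin synthase Ptgds, was at 48.8, 120 and 80.4 CPM against 231, 155 and 159 CPM (adjusted p = 0.054). The summed list was at 83.3, 185 and 125 CPM in KO against 334, 238 and 242 CPM in controls, so the groups did not overlap and the KO mean was 0.483 of the control mean. Of 15 endothelial markers 14 were below 0, with a median of -0.35, sums of 294, 373 and 346 CPM against 381, 391 and 468 CPM, and 1 call, Vwf (-1.01), lost without KO60, KO73, Ctrl64 or Ctrl65 (adjusted p up to 0.131). The 12 pericyte and smooth muscle markers had a median of -0.24 and the 5 border macrophage markers one of -0.62, with no call by edgeR or DESeq2 in either and 3 genes with unadjusted p under 0.05 in each. The pericyte and smooth muscle sums overlapped, at 188, 232 and 228 CPM against 222, 239 and 285 CPM. How much meninges each dissected piece held was not given in the labels. Other called genes may be read beside these sums, among them Ighm and Ighg2c, immunoglobulin constant regions picked after their values were seen, which fell by 0.68 and 1.48 on the log2 scale and were the 2 of that biotype tested. Both calls were lost without KO73 or Ctrl77 (adjusted p up to 0.209 and 0.0635), and that of Ighm also without KO60, Ctrl64 or Ctrl65. The part of meningeal and vascular RNA in any of these decreases was not tested.

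**Figure D4:**
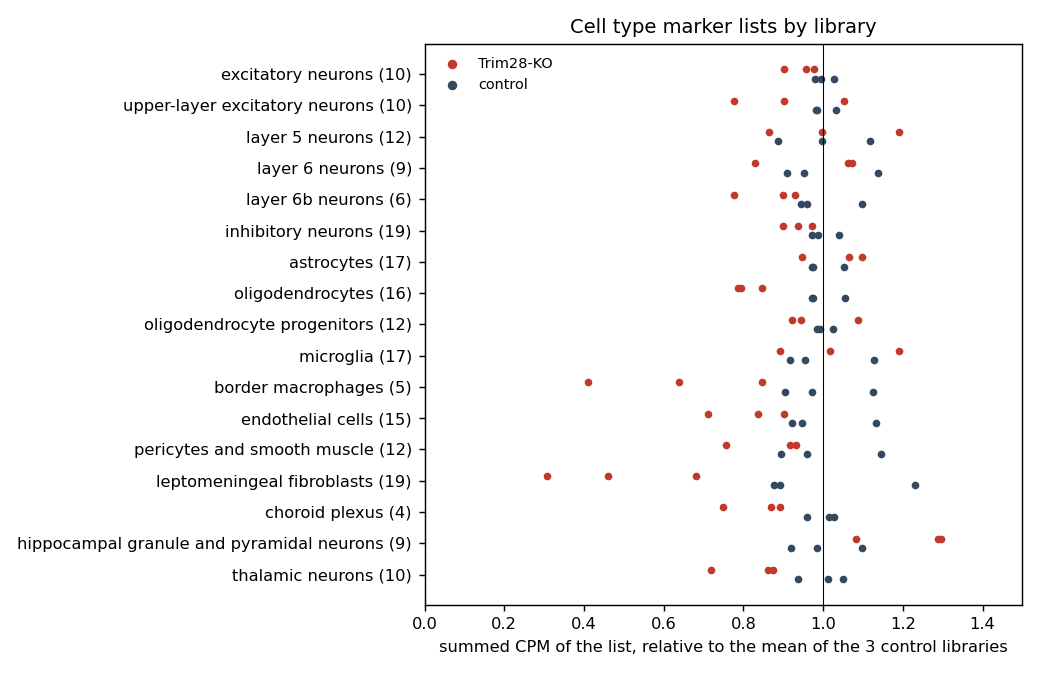
Summed CPM of each cell type marker list in each tissue library, relative to the mean of the 3 controls (x axis), with the number of markers tested in brackets; Trim28-KO libraries are red and controls dark blue. The leptomeningeal list has the KO mean furthest to the left, at 0.483, with its KO libraries spread widely. The KO libraries of the oligodendrocyte list lie left of all 3 controls, while the astrocyte and microglia lists overlap.

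Of 42 gene lists by function, 22 held no gene called by edgeR. Each of these is given here with its median log2 fold change and the number of its genes with an unadjusted p under 0.05 in that fit, apart from the interferon-stimulated genes above. Of the receptors, 17 ionotropic glutamate receptor genes had a median of 0.04 and 1 such gene, 7 metabotropic ones had -0.13 and 2, 14 GABA receptor genes had -0.08 and 1, 3 glycine receptor genes had 0.03 and none, 66 orphan G protein-coupled receptor genes had -0.10 and 11, and 10 vomeronasal and olfactory receptor genes had -0.12 and 4. Of the channels, 76 potassium channel genes had -0.04 and 11, and 31 voltage-gated sodium and calcium channel genes had -0.02 and 8. Of the synapse, 55 adhesion genes had 0.01 and 5, 45 genes of vesicle release had -0.01 and 7, 31 axon guidance genes had -0.05 and 4, and 16 calcium-binding protein genes had 0.16 and 3. Of metabolism, the 22 genes of cholesterol synthesis had 0.16 and 6, the 22 of glycolysis 0.05 and 3, the 77 nuclear genes of the respiratory chain 0.04 and 1 and the 13 mRNAs encoded in mitochondria 0.14 and none. Of stress and housekeeping, the 81 ribosomal protein genes had 0.12 and 4, the 60 heat shock genes 0.03 and 6, the 19 genes of the unfolded protein and DNA damage responses 0.04 and 4 and the 18 histone genes -0.02 and 1. The 43 genes of the Trim28 corepressor complex, heterochromatin and DNA methylation had 0.05 and 1. DESeq2 called 1 gene of these lists, the potassium channel gene Kcng1. Leaving out 1 library gave at most 2 calls in a list, reached by the potassium channels without KO73 or KO76 and by the heat shock and unfolded protein lists without KO76.

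Markers of neuronal identity also held no edgeR call. The medians were -0.08 for 10 excitatory neuron markers (1 with unadjusted p under 0.05), -0.13 for 10 of the upper layers (3), 0.06 for 12 of layer 5 (1), -0.04 for 9 of layer 6 (2), -0.12 for 6 of layer 6b (2) and -0.00 for 19 of inhibitory neurons (none), and DESeq2 called 1, the layer 6 marker Oprk1. Their sums were nonetheless lower in every KO library than in every control for 3 lists. The excitatory sum was 4397 to 4755 CPM in KO against 4771 to 5001 CPM in controls (ratio of means 0.945), the inhibitory sum 892 to 964 CPM against 966 to 1033 CPM (0.936) and the layer 6b sum 57.0 to 68.3 CPM against 69.3 to 80.6 CPM (0.868), with all 6 layer 6b markers below 0. The sums of the upper layers, layer 5 and layer 6 overlapped. Lower sums without overlap were not particular to neuronal lists. They also held for the oligodendrocyte, leptomeningeal, endothelial, border macrophage, choroid plexus (ratio of means 0.836) and thalamic (0.818) markers.

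Of 17 genes that the study named for this cross, besides Trim28, Tmem132d was the 1 called in tissue. The study reported Hecw2 and Sgcz in excitatory nuclei and Apoe, Rora and Auts2 in astrocyte nuclei. It gave Fth1, Nrg3, Csmd1 and Pcdh9 for oligodendrocyte or microglial nuclei, and measured Aif1 and Cd68 as protein. Whole-tissue RNA is an unlike measure and is no test of those reports. By edgeR the ubiquitin ligase gene Hecw2 had a log2 fold change of 0.02 and the sarcoglycan gene Sgcz -0.58 (adjusted p = 0.34). Apoe had 0.30 (adjusted p = 0.82), Rora -0.31 (adjusted p = 0.23) and Auts2 -0.69 (adjusted p = 0.52). The microglial gene Aif1 had 0.67 (adjusted p = 0.21) and Cd68 -0.04 (adjusted p = 0.999). Fth1 had -0.01, Nrg3 -0.06, Csmd1 -0.10, Pcdh9 -0.16 and Gm26835 -0.07. Bmp6, Cd163 and Ptgdr were reported by the study as lower in KO at an adjusted p under 0.05. It used 3 replicates a condition, as the tissue comparison here does. Here edgeR did not call them, at -0.98 (adjusted p = 0.12), -1.06 (adjusted p = 0.16) and -1.37 (adjusted p = 0.26). With the TEtranscripts counts Bmp6 was called lower.

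Nuclei from 4 of the same animals show in which cells these genes are read. After filtering, 13671 of 14296 barcodes were kept, 7199 from KO and 6472 from control animals, with medians of 8088 to 8840 UMIs a nucleus. Between 8 and 25 barcodes of a library also occurred in another, and no doublet caller was run. Of 14 clusters, all were named from markers and fell into 8 classes, called X-like here. The excitatory-like class held 6 clusters in different shares. The cluster led by Otof and Ccbe1 made up 39.4% and 45.9% of it in KO60 and KO73 against 30.6% and 30.9% in Ctrl64 and Ctrl65, the cluster led by Foxp2 and Hs3st4 7.24% and 3.28% against 15.5% and 14.8%, and a cluster of 78 nuclei came mostly from KO73 (56 nuclei). Oligodendrocyte-like nuclei made up 6.46% and 4.54% in KO60 and KO73 against 16.7% and 11.2% in Ctrl64 and Ctrl65, and microglia-like nuclei 4.66% and 3.398% against 6.72% and 5.61%. Leptomeningeal-like nuclei were 0.970% and 0.947% against 0.763% and 1.14%, from 26 to 35 nuclei each, so the lower leptomeningeal RNA of the tissue had no counterpart in these shares. With 2 animals a group the shares were not tested. UMIs summed over each animal's nuclei gave 713 called genes of 17400 tested by the same edgeR test (4.10%), 395 higher (2.27%) and 318 lower (1.83%), but this count ran from 371 without KO73 to 2906 without Ctrl64, so values rather than calls are given below. Trim28 had 262 and 252 UMIs in KO against 277 and 246 in controls (log2 fold change -0.21, adjusted p = 0.439). The libraries were 3′ tagged and where the tags lie relative to the excised exons was not given in the sources used here.

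The genes that rose in tissue were most often highest in excitatory-like or astrocyte-like nuclei of the KO animals. Of 120 genes, 96 had a row in the nuclei and 90 at least 20 UMIs. The class with the highest level in CPM of UMIs was excitatory-like for 24 of these (26.7%, against 9.49% of all tested genes) and astrocyte-like for 22 (24.4%, against 8.88%). It was oligodendrocyte progenitor-like for 12 (13.3%, against 8.69%) and oligodendrocyte-like for 10 (11.1%, against 9.81%). Microglia-like and leptomeningeal-like nuclei had 8 each (8.89%, against 22.1% and 16.1%). Pericyte and smooth muscle-like nuclei had 5 (5.56%, against 16.8%) and inhibitory-like 1 (1.11%, against 8.15%). The levels came from KO60 and KO73, which are among the animals in which the genes were called higher. Genes almost silent in controls passed the filter through their KO level, so these shares are a description only. Of the 74 that fell, 63 had as many UMIs. By their level in controls 18 were highest in leptomeningeal-like (28.6%, against 17.6%) and 10 in excitatory-like nuclei (15.9%, against 8.57%). Another 9 were highest in pericyte and smooth muscle-like (14.3%, against 18.2%) and 8 in astrocyte-like nuclei (12.7%, against 9.29%). Oligodendrocyte-like and oligodendrocyte progenitor-like nuclei had 6 each (9.52%, against 8.92% and 7.55%). Microglia-like and inhibitory-like nuclei had 3 each (4.76%, against 21.1% and 8.76%). With at least 50 UMIs the leptomeningeal-like share was 23.2%, against 17.4%. These shares too are a description only. The class levels carry RNA that is free in the nuclear suspension, and low values in a class are not read as expression.

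Fbxw19 stood out in oligodendrocyte-like nuclei, with 890 and 562 CPM of UMIs in KO60 and KO73 and 0 in both controls. It was at 31.0 and 49.0 in astrocyte-like, 1.14 and 0.680 in excitatory-like and 0.487 and 0 in inhibitory-like nuclei of KO animals. Its neighbour Fbxw16 had the same order, at 498 and 210 in oligodendrocyte-like and 27.7 and 26.2 in astrocyte-like nuclei, and 0 in both classes of the controls. Mnd1 was read in several classes, at 288 and 391.7 in oligodendrocyte-like nuclei against 0.674 and 0, at 88.9 and 116 in astrocyte-like against 1.53 and 4.97, and at 15.8 and 17.1 in excitatory-like against 2.12 and 1.31. In inhibitory-like nuclei Mnd1 was at 3.16 and 2.54 against 2.26 and 2.73, so the groups overlapped there. The noncoding RNA 2900052N01Rik was an astrocyte-like transcript, at 199 and 194 against 46.6 and 47.2, and so were Nat8f2 (29.4 and 26.2 against 1.53 and 2.49) and Slco1a5 (23.7 and 22.8 against 0.763 and 0). Iapp had 10 and 9 UMIs in KO and 0 and 1 in controls over all nuclei, 9 and 6 of them in astrocyte-like nuclei.

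Other genes were higher in excitatory-like nuclei, several of them in glial classes too. Gm20711 was at 117 and 75.4 CPM of UMIs there in KO against 4.73 and 3.50 in controls, and at 2.19 and 3.92 against 0.282 and 0.545 in inhibitory-like nuclei. Gm13016 was at 12.8 and 11.6 against 0.586 and 0.131 in excitatory-like nuclei, which held 335 and 306 of its 346 and 313 UMIs. Tcfl5 was at 12.7 and 12.6 against 0.946 and 0.394, Hoga1 at 18.98 and 15.9 against 1.13 and 0.612, and Cers3 at 4.99 and 3.78 against 0.811 and 1.40. Tcfl5 was as high in oligodendrocyte-like nuclei, at 19.2 and 18.4 against 0.674 and 0 from 10 and 8 UMIs in KO, and Hoga1 was at 68.5 and 55.7 against 24.4 and 29.8 in astrocyte-like nuclei. 2410018L13Rik was at 45.5 and 57.7 against 3.56 and 6.17 in excitatory-like nuclei, at 53.8 and 67.5 against 3.05 and 0 in astrocyte-like, at 44.4 and 89.1 against 1.79 and 2.64 in oligodendrocyte progenitor-like, and at 5.60 and 4.84 against 3.39 and 8.18 in inhibitory-like nuclei. Zfp981 was at 11.4 and 10.1 against 1.98 and 1.14 in excitatory-like and at 23.7 and 15.2 against 1.53 and 2.49 in astrocyte-like nuclei, while in microglia-like nuclei it was at 177 and 208 against 131 and 139. Zfp808 was at 50.1 and 49.0 against 20.6 and 25.6 in excitatory-like, at 115 and 100 against 32.8 and 39.8 in astrocyte-like and at 13.1 and 16.6 against 16.4 and 19.9 in inhibitory-like nuclei. Rgs10 was at 23.7 and 21.9 against 5.00 and 6.65 in excitatory-like nuclei, and in microglia-like nuclei, where it was highest, at 483 and 499 against 591 and 530. For Wwox the summed nuclei gave a log2 fold change of 0.00, with 324 and 317 against 268 and 301 in excitatory-like nuclei and 537 and 487 against 573 and 663 in inhibitory-like nuclei, where the KO animals lay below the controls. In excitatory-like nuclei the KO animals lay above both controls for each gene of this paragraph. The clusters led by Otof and by Foxp2 had larger and smaller shares of the class in KO. In these Gm20711 was at 5.90 and 7.68 against 0.975 and 0.378 and at 390 and 411 against 13.2 and 14.7. The animals overlapped for Wwox in the Otof cluster (253 and 251 against 241 and 263) and for Zfp981 in the Foxp2 cluster (9.79 and 2.83 against 3.73 and 0). The other genes of this paragraph lay above both controls in both clusters. No class difference was tested.

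**Figure D5:**
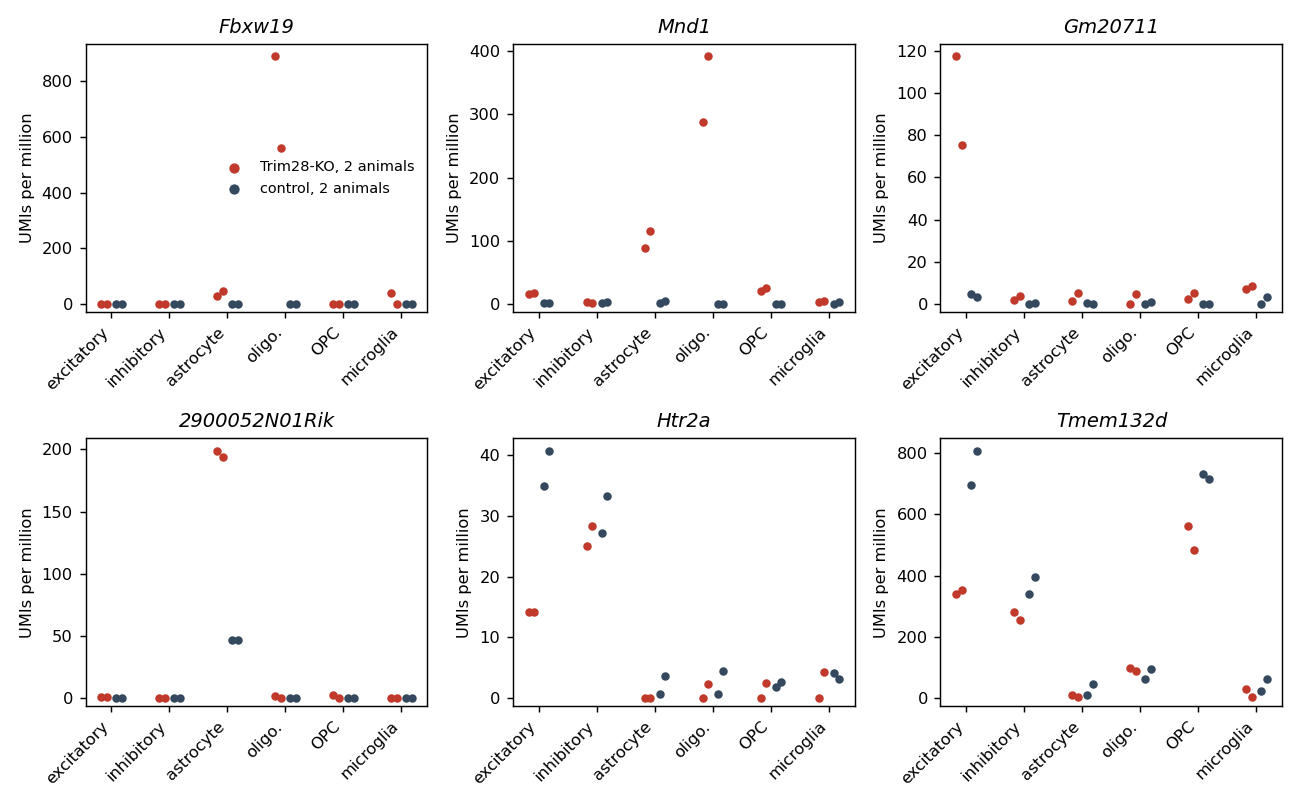
CPM of UMIs of 6 genes in 6 nuclear classes, 1 point for each animal, with Trim28-KO in red and controls in dark blue; oligo. stands for oligodendrocyte-like and OPC for oligodendrocyte progenitor-like nuclei. Fbxw19 reaches 890 and 562 in oligodendrocyte-like KO nuclei and Gm20711 117 and 75.4 in excitatory-like ones, whereas Htr2a and Tmem132d are lower in excitatory-like KO nuclei than in both controls.

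Of 7 genes known from neurons that fell in tissue, 6 were lower in excitatory-like nuclei of both KO animals and Cartpt was not. Htr2a was at 14.2 and 14.2 CPM of UMIs there in KO against 34.9 and 40.7 in controls, and at 25.1 and 28.4 against 27.1 and 33.3 in inhibitory-like nuclei, where the animals overlapped. Tmem132d was at 341 and 354 against 697 and 809 in excitatory-like and at 283 and 255 against 342 and 396 in inhibitory-like nuclei. Onecut2 was at 3.93 and 2.38 against 14.6 and 19.2 in excitatory-like nuclei. Its level was higher in oligodendrocyte-like nuclei, where it was also lower in KO, at 32.7 and 36.9 against 77.5 and 85.6. The part of the smaller oligodendrocyte-like share of KO nuclei in its tissue decrease was not tested. Rxfp2 was at 1.18 and 2.57 against 5.77 and 6.08 in excitatory-like nuclei. Chrm2 was at 52.4 and 54.8 against 73.7 and 79.5 in excitatory-like and at 47.9 and 34.8 against 71.1 and 115 in inhibitory-like nuclei, and Sema3e was at 29.3 and 22.9 against 46.6 and 49.6 in excitatory-like and at 107 and 122 against 98.5 and 105 in inhibitory-like nuclei. Cartpt was at 1.94 and 3.21 against 1.89 and 2.54 in excitatory-like nuclei. Since the clusters of the class differed in share, levels were also read within clusters. In the largest, led by Cnih3 and Rorb, Htr2a was at 25.2 and 27.1 against 57.5 and 67.8, Tmem132d at 344 and 384 against 741 and 860, Onecut2 at 5.53 and 3.57 against 22.6 and 30.4, Rxfp2 at 1.93 and 4.82 against 10.2 and 10.2, Chrm2 at 78.3 and 85.0 against 105 and 126 and Sema3e at 22.5 and 17.9 against 37.3 and 39.0. In the cluster led by Otof the KO animals were again below both controls for Htr2a (6.63 and 7.29 against 14.8 and 22.4), Tmem132d (394 and 377 against 758 and 931) and Onecut2 (1.27 and 0.470 against 4.32 and 2.90), but not for Chrm2 (34.8 and 29.6 against 28.3 and 29.8), Sema3e (4.90 and 4.78 against 4.32 and 3.91) or Rxfp2. Among the glial genes, Cdh19 was lower in astrocyte-like nuclei, at 219 and 230 against 494 and 560, and in oligodendrocyte-like nuclei, at 284 and 279 against 541 and 462. Gfra1 was at 17.1 and 14.4 against 179 and 173 in astrocyte-like nuclei, while in oligodendrocyte progenitor-like nuclei it was at 321 and 288 against 261 and 333 and in oligodendrocyte-like nuclei it was higher in KO, at 175 and 120 against 43.1 and 81.1. Il33 was at 284 and 258 against 490 and 416 in oligodendrocyte-like and at 70.2 and 81.0 against 71.7 and 89.5 in astrocyte-like nuclei. Abca8a, a lipid transporter gene picked after its values were seen, was at 98.0 and 106 against 198 and 276 in oligodendrocyte-like nuclei. Apod did not fall within oligodendrocyte-like nuclei, at 427 and 401 against 463 and 346, and Slc47a1 in leptomeningeal-like nuclei was at 1374 and 110 against 458 and 1449, with the 2 animals of each group further apart than the groups.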

How the data were processed

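RNA of cortical tissue was sequenced in 6 animals and nuclei of 4 of them by a droplet method with 3′ tags. The tissue libraries were stranded and poly-A selected. The authors mapped reads with STAR 2.6.0 to GRCm38 and counted reads per gene with featureCounts (Subread 1.6.3, unique reads, reverse strand), and the deposited tissue values are these counts. The deposited nuclei matrices are UMI counts from Cell Ranger 3.0. The gene counts that TEtranscripts gave were deposited too and served as an alternative. Unique counting leaves out reads shared by near-identical genes. Of 55298 gene rows, 54409 matched a symbol and biotype. Replicates were 3 separate animals a group, as labelled. 6 columns of another deposited table matched no sample and were not used.

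Genes were filtered with filterByExpr, scaled by TMM and tested with edgeR 4.0.16 (quasi-likelihood, R 4.3.3, limma 3.58.1) as KO against control with no covariate; a call needed a Benjamini-Hochberg adjusted p under 0.05 and an absolute log2 fold change above 0.5. The scripts were tested on simulated counts. Alternatives were RLE factors, library size alone, no filter, DESeq2 1.42.0, TEtranscripts counts, the adjusted p alone, no genes of X and Y, each library left out and, added after seeing the data, no ribosomal RNA-like rows. Nuclei were filtered at 3 MADs and clustered with Seurat 5.3.0 (2000 variable genes, 20 components, resolution 0.1), and clusters were named from markers. Intervals or floors cover counting error only.

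The named genes were Trim28, 17 genes the study names for this cross, the called genes with the largest changes (12 coding and 5 other a direction), up to 4 a direction from each list, the called genes of each run and the 5 with the highest mean CPM a direction; others are marked as picked after their values were seen, as were Spp1, Fos, Arc, Egr1, Npas4, Bdnf, Ptgds, Aspa, Kcng1, Oprk1, 2410018L13Rik and 1700030C10Rik. Named genes of largest change and from lists were taken only from called genes whose groups did not overlap, which held for every called gene outside the protocadherins. The members and gene lists were chosen with earlier results of these data known.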

Additional observations from a re-analysis of the deposited data

How the results depend on the processing

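Over all genes, 216 calls became 413 with library size alone and 546 without the filter on low counts, and ranged from 104 to 344 when 1 library was left out, lowest without Ctrl77 and highest without KO76. Library size alone moved the median of all genes by -0.18 on the log2 scale and the share of calls that were higher from 64.8% to 36.3%. Outside the protocadherins, the 120 higher genes became 298 without the filter and 68 to 196 with 1 library left out, and the 74 lower genes became 258 with library size alone, 218 without the filter and 23 to 122 with 1 library left out. Calls among list members went from 45 to 99 with library size alone, to 122 without the filter and to between 23 and 74 with 1 library left out. The 713 calls in summed nuclei became 90 without the filter, 1327 with DESeq2 and 371 to 2906 with 1 animal left out. The causes were not tested. RLE factors, DESeq2, TEtranscripts counts, the fit without X and Y and the fit without ribosomal RNA-like rows kept the 120 and 74 within 1.5 times, and DESeq2 shared 184 of the 194. The Trim28 call held under each alternative run. Of 81 named called genes 8 were lost with library size alone, 2 without the filter, 4 with DESeq2 and 4 to 34 with 1 library left out. With TEtranscripts counts 76 had a value, 7 were lost and Col9a3 turned to -0.0701 on the log2 scale (adjusted p = 0.99). No paired analysis was possible because the KO and control libraries share no replicate number.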
